A study of Mus musculus with 6 samples.

Results

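The genes described here encode 9 ion channels, pumps and transporters of the mouse retinal pigment epithelium (RPE): the potassium channels Kcnj13 and Kcnq5, the chloride channels Best1 and Clcn2, the Na/K-ATPase subunit Atp1b1, the cotransporter Slc12a2, the bicarbonate transporter Slc4a4, the calcium channel Cacna1d and the water channel Aqp1. They were taken by gene symbol, and all 9 were found among the 54532 genes of the deposited table and among the 17340 genes that had enough reads to be tested. Bulk RNA sequencing was done on RPE of 3 Abca4KO and 3 WT mice, 1 library per mouse, sampled 5 h after light onset. The Abca4KO mice (Abca4-/-) were the Jackson line Abca4tm1Ght/J and the WT mice were 129S1/SvlmJ, so line and genotype cannot be told apart. Both carried the Leu450 form of Rpe65 and were kept on 12-h cyclic light and a standard diet. Age and sex are not given in the sources used here.

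The RPE is a pigmented monolayer between the photoreceptors and the choroid, and it moves ions and water from the retina towards the blood. In contrast to most epithelia, its Na/K-ATPase sits on the apical side, which faces the photoreceptors. Potassium that the pump brings in flows back through an apical inwardly rectifying channel encoded by Kcnj13, sodium, potassium and chloride enter through the cotransporter NKCC1 (Slc12a2), chloride leaves through basolateral channels, and water follows through the cell. Mutations of human KCNJ13 and BEST1 cause inherited retinal disease.

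With edgeR's quasi-likelihood test, 0 of the 9 genes passed an adjusted p of 0.05 over all 17340 genes, where 0.0461% of all genes did (0.0346% as higher and 0.0115% as lower in Abca4KO). DESeq2 called 2 of them, Aqp1 and Kcnj13, where 0.549% of all genes passed. Limma-voom with sample weights called 1, Aqp1, where 0.179% passed. A fit added after the data were seen, edgeR without both WT 2 and Abca4KO 1, also called Aqp1, where 1.09% passed. Aqp1 and Kcnj13 had the smallest p-values. Their 3 Abca4KO libraries lay above their 3 WT libraries, and the fitted difference between genotypes was 1.56-fold for Aqp1 and 1.30-fold for Kcnj13. Slc12a2 was the only other member without overlap, with its Abca4KO libraries below the WT libraries. Over all tested genes, 12.8% had no overlap between genotypes (5.93% with Abca4KO above and 6.85% below), beside 3 of the 9 (2 above, 1 below). An unadjusted p under 0.05 was found for the same 3 of the 9 (2 higher, 1 lower), beside 7.02% of all tested genes (3.15% higher and 3.87% lower). The median log2 fold change was 0.07 over the 9 genes and -0.01 over all tested genes. As the 9 were chosen with earlier results of these data known, nothing is read from these shares.

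The libraries matched their labels. Abca4, the targeted gene, had 32.6, 39.1 and 36.8 CPM (read counts scaled to a common library size) in Abca4KO RPE, against 955, 932 and 968 CPM in WT RPE. Total counts lay between 17047286 and 19841307 per library. The visual cycle genes Rpe65 and Rlbp1, both among the RPE markers used here, lay between 4327 and 5593 CPM and between 2553 and 3514 CPM. Neighbouring tissue was also present: summed rod markers ranged from 1041 to 3459 CPM in Abca4KO and from 698.7 to 1822 CPM in WT libraries, highest in Abca4KO 1. WT 2 stood apart, with 154.9 CPM of the corneal keratin gene Krt12, which was at most 0.327 CPM elsewhere. Results are therefore also given without WT 2 or without both WT 2 and Abca4KO 1 where that bears on them. In bulk RNA, fewer cells of a type and less RNA per cell cannot be told apart.

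The bases just before the start sites of Kcnj13, Best1 and Aqp1 are shown because mutations of human KCNJ13 and BEST1 cause inherited retinal disease and Aqp1 had the smallest p of the 9. The sequences are from RefSeq (GRCm38.p6), run 5′ to 3′ on the strand of the gene and end at the base before the RefSeq start. Each window is 250 bases long. Windows were matched for 8 of the 9 genes, all but Slc12a2. Capitals mark CATGTG, an E-box core of the kind bound by MITF, or TAATCC, a core of the kind bound by OTX2, on either strand. MITF and OTX2 are transcription factors of the RPE. Also searched was the E-box CACGTG, and the motifs do not share bases in these windows.
Kcnj13, chr1:87394730-87394979, minus strand: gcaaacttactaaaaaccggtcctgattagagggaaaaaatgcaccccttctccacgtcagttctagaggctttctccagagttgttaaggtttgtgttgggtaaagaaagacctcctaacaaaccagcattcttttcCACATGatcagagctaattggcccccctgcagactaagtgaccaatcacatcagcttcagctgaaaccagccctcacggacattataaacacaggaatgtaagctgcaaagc
Best1, chr19:10001634-10001883, minus strand: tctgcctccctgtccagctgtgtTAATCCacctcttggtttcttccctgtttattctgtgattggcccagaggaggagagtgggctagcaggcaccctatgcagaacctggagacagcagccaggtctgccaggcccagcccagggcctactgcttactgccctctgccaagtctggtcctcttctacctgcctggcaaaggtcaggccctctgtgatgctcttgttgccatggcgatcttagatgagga
Aqp1, chr6:55336049-55336298, plus strand: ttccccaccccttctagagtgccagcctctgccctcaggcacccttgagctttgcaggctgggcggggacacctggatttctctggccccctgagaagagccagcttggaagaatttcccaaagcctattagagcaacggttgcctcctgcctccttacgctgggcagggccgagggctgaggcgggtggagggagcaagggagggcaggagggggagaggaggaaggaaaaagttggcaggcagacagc

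The Kcnj13 window held 1 CATGTG core, read on the opposite strand and starting 112 bases before the start site (position -112). In the Best1 window 1 TAATCC core started at position -227. No searched motif was in the Aqp1 window or in the windows of the other 5 genes. Over all 32851 RefSeq windows of the same length, 12.3% held CATGTG, 6.02% held CACGTG and 6.25% held TAATCC. These are matches of letters and do not show binding.

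The 9 genes spanned a wide range of levels. Levels of different genes are compared in a length-scaled unit, TPM, computed from the counts and the gene lengths of the deposited table. Kcnj13 was highest at 495.8 to 771.7 TPM over the 6 libraries, followed by Atp1b1 at 315.4 to 477.7 TPM and Slc12a2 at 199.3 to 278.8 TPM. Clcn2 at 78.3 to 100.1 TPM and Aqp1 at 46.1 to 87.2 TPM came next, and their ranges overlapped. Slc4a4 had 16.8 to 27.9 TPM. Best1 at 5.66 to 12.1 TPM and Cacna1d at 3.85 to 6.10 TPM overlapped as well, and Kcnq5 was lowest at 0.855 to 1.58 TPM. Apart from these 2 overlapping pairs, the range of each gene was separate from that of its neighbour. The lengths of Slc12a2 (6520 bases in the deposited table, 10920 in GENCODE M21) and of Best1 (2152 and 2579 bases) depend on the annotation, and their TPM with them.

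**Figure D1:**
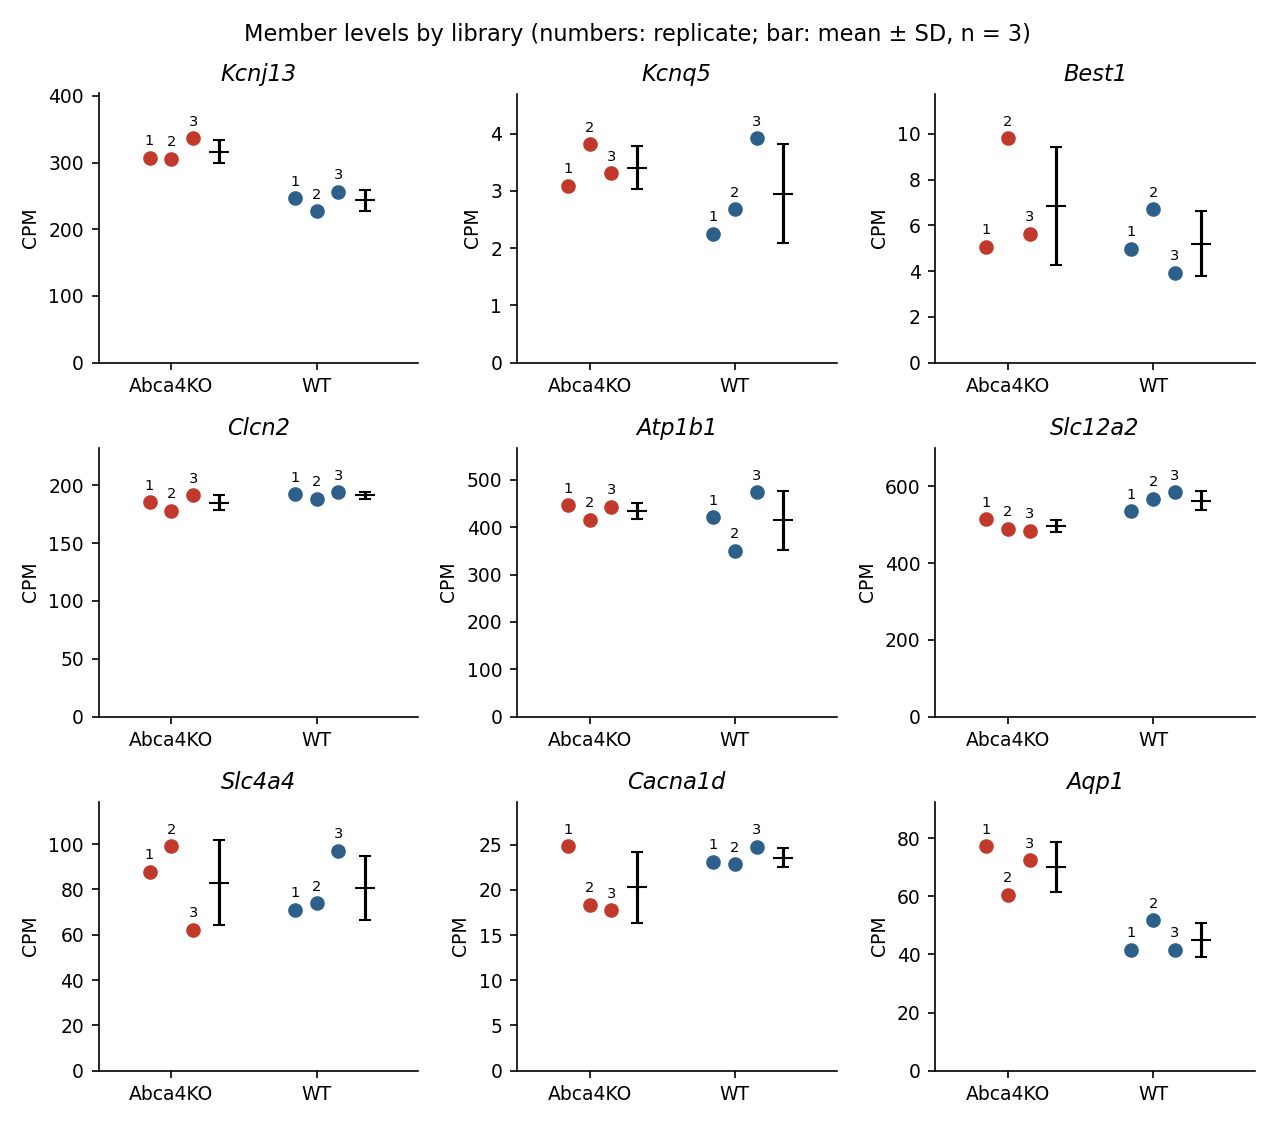
Level of each of the 9 genes in CPM (vertical axes from 0) in 3 Abca4KO and 3 WT libraries. Points are libraries numbered by replicate, and bars are means ± SD (n = 3). For Kcnj13 and Aqp1 all Abca4KO points lie above all WT points, and for Slc12a2 all lie below.

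Kcnj13 encodes the inwardly rectifying potassium channel of the apical RPE membrane. It had 307.1, 305.6 and 336.2 CPM in Abca4KO RPE, against 246.6, 226.7 and 256.5 CPM in WT RPE. The lowest Abca4KO library lay above the highest WT library. The means were 316.3 ± 17.3 CPM in Abca4KO and 243.3 ± 15.2 CPM in WT (SD, n = 3 each). On the log2 scale the fold change was 0.38 (SE 0.08, 95% interval 0.19 to 0.57). The quasi-likelihood test of edgeR gave an unadjusted p of 0.00218 and an adjusted p of 0.486. In DESeq2 the adjusted p was 0.0499, a call that edgeR did not make. In that DESeq2 test 0.326% of genes passed as higher.

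Leaving out single libraries kept the Kcnj13 difference between 0.33 and 0.42 (log2), with adjusted p-values of 0.279 to 0.981. Without both WT 2 and Abca4KO 1 it was 0.34 (adjusted p = 0.142). The summed level of 10 RPE markers overlapped between the genotypes, at 37957 to 40111 CPM in Abca4KO and 32346 to 41390 CPM in WT, where WT 2 was lowest. Ttr and Rgr were the largest parts of that sum, so it says little of the other markers. Of the 10 markers 5 had positive log2 fold changes, and the median was 0.0028. Kcnj13 (ENSMUSG00000079436, chromosome 1, 87386363 to 87394729, minus strand, mm10) lies inside Gigyf2, a gene on the opposite strand that encodes a regulator of translation. Of its 1270 annotated exon bases, 623 (49.1%) are also exon bases of Gigyf2, so its count and its TPM are uncertain to the extent that reads there went to Gigyf2 or to neither gene.

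Gigyf2 itself had 86.3, 73.3 and 77.7 CPM in Abca4KO, against 80.6, 75.8 and 78.2 CPM in WT. These overlapped (log2 fold change 0.02, 95% interval -0.18 to 0.22). Its direction turned without WT 2, without Abca4KO 1, without both, and in limma-voom. The log2 ratio of Kcnj13 to Gigyf2 was 1.83, 2.06 and 2.11 in Abca4KO and 1.61, 1.58 and 1.71 in WT, without overlap. The difference in this ratio was 0.37 (2-sided exact permutation p = 0.1, the smallest that 3 against 3 libraries can give).

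Within the Kir family, Kcnj13 made up almost the whole signal. It took 92.6 ± 0.973% of the summed TPM of 15 Kir genes in Abca4KO and 90.9 ± 0.391% in WT (SD, n = 3 each). Kcnj13 was 26.5 to 51.7 times as high in TPM as Kcnj8, the next gene by mean TPM and an ATP-sensitive channel subunit of vascular cells. Kcnj10, the Kir channel of Müller glia, had 11.1 ± 4.72 TPM in Abca4KO and 16.9 ± 7.47 TPM in WT (SD, n = 3 each).

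By their profile over the 6 libraries, the genes most like Kcnj13 were Atp6v0e, Eno2 and Qrsl1. Likeness was the root mean square difference of log2 CPM after centring each gene on its mean, over 10064 genes of at least 10 CPM. It was 0.03 for Atp6v0e, a subunit of the proton pump V-ATPase, 0.04 for the enolase gene Eno2 and 0.05 for Qrsl1, a mitochondrial amidotransferase subunit gene. The spread of Kcnj13 itself was 0.20 on that scale.

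Kcnq5 encodes a voltage-gated potassium channel of the M-current type that has been placed in the RPE of other mammals. Its counts were low, with 3.10, 3.82 and 3.31 CPM in Abca4KO, against 2.25, 2.68 and 3.92 CPM in WT. WT 3 was the highest of all 6, so the genotypes overlapped. The log2 fold change of 0.21 had a 95% interval of -0.50 to 0.92 (adjusted p = 0.924 in edgeR). Counting error alone amounted to 12.5% of the mean in Abca4KO and 13.5% in WT, and the SD was 10.9% of the mean in Abca4KO and 29.3% in WT. As a fold, the interval ran from 0.705 to 1.89, and differences within it could not be resolved.

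Best1 encodes bestrophin, a calcium-activated chloride channel of the basolateral RPE membrane. It had 5.07, 9.80 and 5.64 CPM in Abca4KO RPE, against 4.97, 6.71 and 3.92 CPM in WT RPE. Abca4KO 2 stood above the other 5 libraries, and the genotypes overlapped. A log2 fold change of 0.39 with a 95% interval of -0.38 to 1.17 was fitted (adjusted p = 0.856 in edgeR). Without Abca4KO 2 it was 0.05, and without WT 2 it was 0.62 (adjusted p = 0.561 in edgeR). Without both WT 2 and Abca4KO 1 it was 0.78 (adjusted p = 0.306 in edgeR). The SD came to 37.8% of the mean in Abca4KO and 27.1% in WT, where counting error accounts for 8.80% and 10.1%, so the spread between libraries exceeded the counting error. Best1 (chromosome 19, 9985174 to 10001633, minus strand) had no overlapping gene with counts.

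Best1 was a low gene in these samples and lay at the 32.3rd percentile of tested genes by mean CPM. Its share was 65.6 ± 14.7% of bestrophin TPM in Abca4KO and 57.96 ± 14.5% in WT (SD, n = 3 each). Best3, a bestrophin better known from muscle, had 1.73, 1.24 and 1.57 CPM in Abca4KO and 2.93, 3.44 and 5.99 CPM in WT, without overlap. Its log2 fold change was -1.44 (adjusted p = 0.557 in edgeR). In WT 3 the TPM of Best1 was below that of Best3, at 0.827 times its level. The genes most like Best1 in profile were Rps12, Hal and Mapk12, with root mean square differences of 0.07, 0.10 and 0.10 against a spread of 0.41 for Best1 itself.

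Clcn2, a voltage-gated chloride channel whose loss causes retinal degeneration in mice, varied little between libraries. Its levels were 185.4, 178.1 and 191.5 CPM in Abca4KO, against 192.3, 188.2 and 193.9 CPM in WT. The genotypes overlapped, and the SD was 3.65% of the mean in Abca4KO, where Slc12a2 had 3.16%, and 1.51% in WT, the lowest of the 9. Its log2 fold change was -0.05 with a 95% interval of -0.21 to 0.11 (adjusted p = 0.919 in edgeR).

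**Figure D2:**
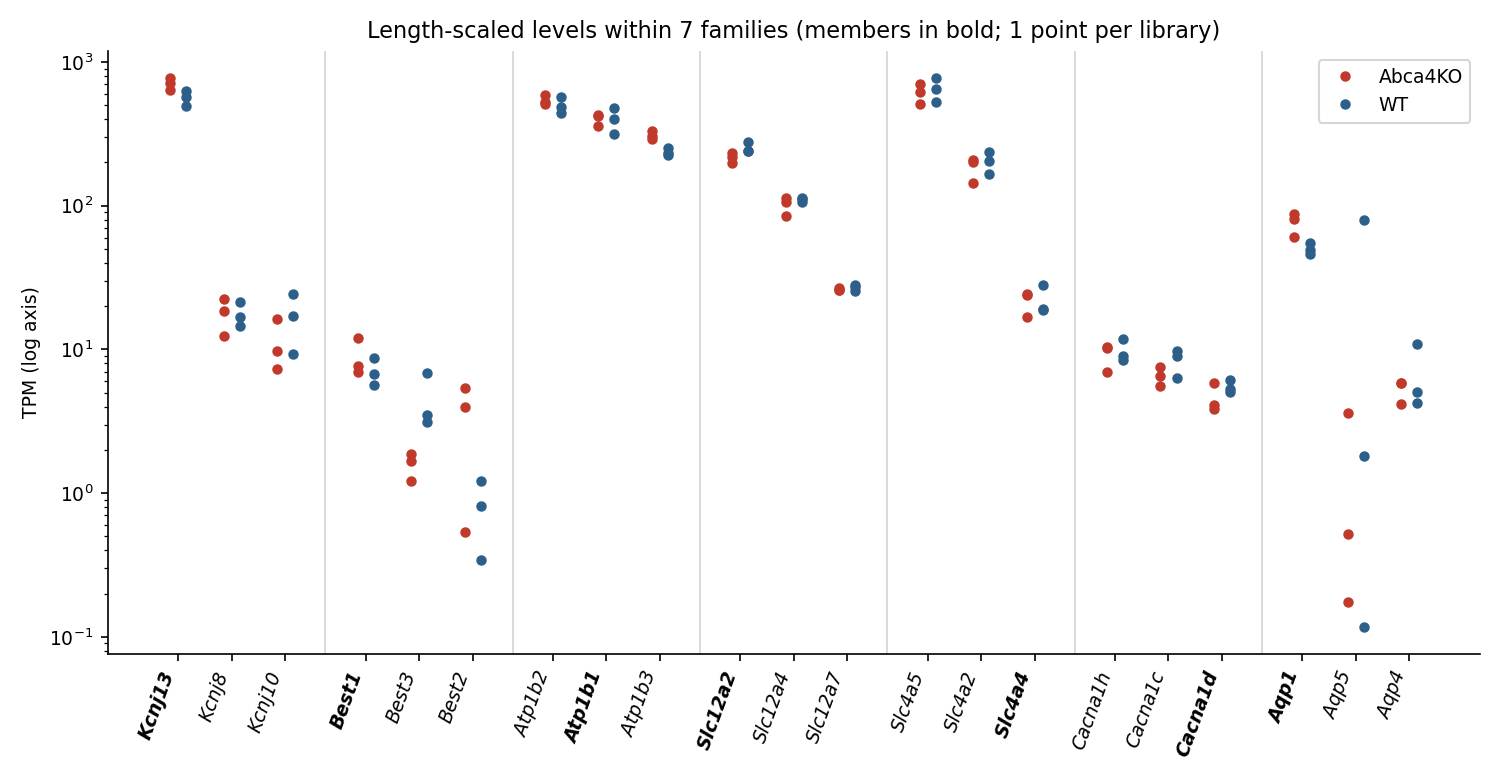
Length-scaled level (TPM, log axis) of the highest genes of 7 families, with the described genes of those families in bold, in Abca4KO (red) and WT (blue) libraries, 1 point per library. Kcnj13 and Slc12a2 lead their families, whereas Slc4a4 lies below Slc4a5 and Slc4a2.

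Atp1b1 encodes a beta subunit of the Na/K-ATPase, the pump that drives the transport across the RPE. It had 445.8, 415.4 and 443.2 CPM in Abca4KO, against 420.6, 349.9 and 473.3 CPM in WT. The Abca4KO libraries lay within the range of the WT libraries, in which WT 2 was lowest. The fitted log2 fold change was 0.07 with a 95% interval of -0.20 to 0.34 (adjusted p = 0.934 in edgeR), and without WT 2 its sign turned to -0.04. Atp1b1 (chromosome 1, 164437109 to 164458355, minus strand) shares 575 of its exon bases (18.7%) with Nme7 on the opposite strand, which had 996 counts over all libraries against 47708 for Atp1b1.

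The beta subunits were mixed in these samples. Atp1b1 took 32.8%, 29.9% and 33.4% of the summed TPM of Atp1b1, Atp1b2 and Atp1b3 in Abca4KO, against 35.9%, 31.3% and 37.2% in WT. The shares overlapped, with means of 32.0 ± 1.89% in Abca4KO and 34.8 ± 3.09% in WT (SD, n = 3 each; 2-sided exact permutation p = 0.3). Atp1b2 was 1.203 to 1.42 times Atp1b1 in TPM in each library. Atp1b3 had 234.7, 297.2 and 250.4 CPM in Abca4KO and 184.4, 216.2 and 178.7 CPM in WT, without overlap (log2 fold change 0.43, SE 0.12, adjusted p = 0.595 in edgeR).

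The FXYD proteins modulate the pump. Fxyd2 measured 48.9 ± 9.14 CPM in Abca4KO and 34.4 ± 3.57 CPM in WT (SD, n = 3 each; adjusted p = 0.616 in edgeR), and Fxyd1 84.5 ± 14.4 CPM in Abca4KO and 65.4 ± 8.61 CPM in WT (SD, n = 3 each; adjusted p = 0.706).

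Slc12a2 encodes NKCC1, which loads the RPE cell with sodium, potassium and chloride from the retinal side. It had 514.3, 490.5 and 484.7 CPM in Abca4KO RPE, against 536.1, 568.1 and 584.7 CPM in WT RPE. Every Abca4KO library lay below every WT library, by a small margin. Its log2 fold change of -0.18 had an SE of 0.08 and a 95% interval of -0.36 to -0.0047. In edgeR the unadjusted p was 0.0455 and the adjusted p 0.706. When single libraries were left out it stayed between -0.21 and -0.15. It did not pass in DESeq2 (adjusted p = 0.907) or in limma-voom (adjusted p = 0.252).

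Slc12a2 led the 9 SLC12 genes, with 54.6 ± 1.81% of their TPM in Abca4KO and 56.7 ± 1.46% in WT (SD, n = 3 each). Slc12a4, a potassium-chloride cotransporter gene, came second, and Slc12a2 was 1.90 to 2.45 times its TPM. The share and the ratio rest on the deposited Slc12a2 length of 6520 bases, and both would be lower with the 10920 exon bases of GENCODE M21. The kinases that switch these cotransporters on and off were measured too. Stk39, the kinase SPAK that acts on NKCC1, had 122.0 ± 7.87 CPM in Abca4KO and 146 ± 17.96 CPM in WT (SD, n = 3 each; unadjusted p = 0.0457, adjusted p = 0.706 in edgeR). Wnk1, which acts upstream of SPAK, had 202.2 ± 10.2 CPM in Abca4KO and 224.9 ± 11.0 CPM in WT, without overlap (SD, n = 3 each; adjusted p = 0.746).

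Slc4a4 encodes a sodium-bicarbonate cotransporter. It had 87.8, 99.0 and 62.2 CPM in Abca4KO, against 70.9, 73.8 and 97.0 CPM in WT. Abca4KO 3 was the lowest and Abca4KO 2 the highest of all 6, so that the WT range lay inside the Abca4KO range. The log2 fold change was 0.04 with a 95% interval of -0.40 to 0.49 (adjusted p = 0.980 in edgeR), and its sign turned when Abca4KO 2, WT 1 or WT 2 was left out.

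Slc4a4 was a minor bicarbonate transporter by transcript here, with 2.56 ± 0.736% of the TPM of 10 SLC4 genes in Abca4KO and 2.38 ± 0.258% in WT (SD, n = 3 each). Slc4a5, another sodium-bicarbonate cotransporter gene, was 21.1 to 36.7 times higher in TPM in each library, at 608.6 ± 94.1 TPM in Abca4KO and 646.8 ± 124.0 TPM in WT (SD, n = 3 each). Its difference between genotypes had a log2 fold change of -0.04 and a 95% interval of -0.34 to 0.26. Car14, a membrane-bound carbonic anhydrase that works beside such transporters, had 816.9 ± 52.1 TPM in Abca4KO and 810.3 ± 155.5 TPM in WT (SD, n = 3 each), and it overlaps Aph1a on the opposite strand over 17.5% of its exon bases.

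Cacna1d encodes the pore subunit of an L-type calcium channel that has been linked to the light response and secretion of the RPE. It had 24.8, 18.4 and 17.7 CPM in Abca4KO, against 23.1, 22.8 and 24.8 CPM in WT. Abca4KO 1 and WT 3 were at the top, both at 24.8 CPM, while Abca4KO 2 and 3 lay below every WT library. Summed rod markers were 3459 CPM in Abca4KO 1, the highest of all 6 libraries, and 1676 CPM in WT 3. Whether photoreceptor RNA had a part in the Cacna1d levels was not tested. Over all libraries the log2 fold change was -0.21 with a 95% interval of -0.57 to 0.14 (adjusted p = 0.824 in edgeR). Without Abca4KO 1 it was -0.38 (adjusted p = 0.548) and without Abca4KO 3 it was -0.13 (adjusted p = 0.979). Cacna1d shares 4.67% of its exon bases with Chdh on the opposite strand.

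Among the 10 calcium channel alpha1 genes, Cacna1h and Cacna1c were above Cacna1d in mean TPM. Cacna1d took 13.3 ± 1.27% of their TPM in Abca4KO and 14.9 ± 1.497% in WT (SD, n = 3 each). Cacna1h, of the T type, was 1.69 to 2.51 times higher. The auxiliary subunit gene Cacnb3 measured 16.9 ± 2.71 CPM in Abca4KO and 12.4 ± 1.29 CPM in WT, without overlap (SD, n = 3 each; adjusted p = 0.683 in edgeR).

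**Figure D3:**
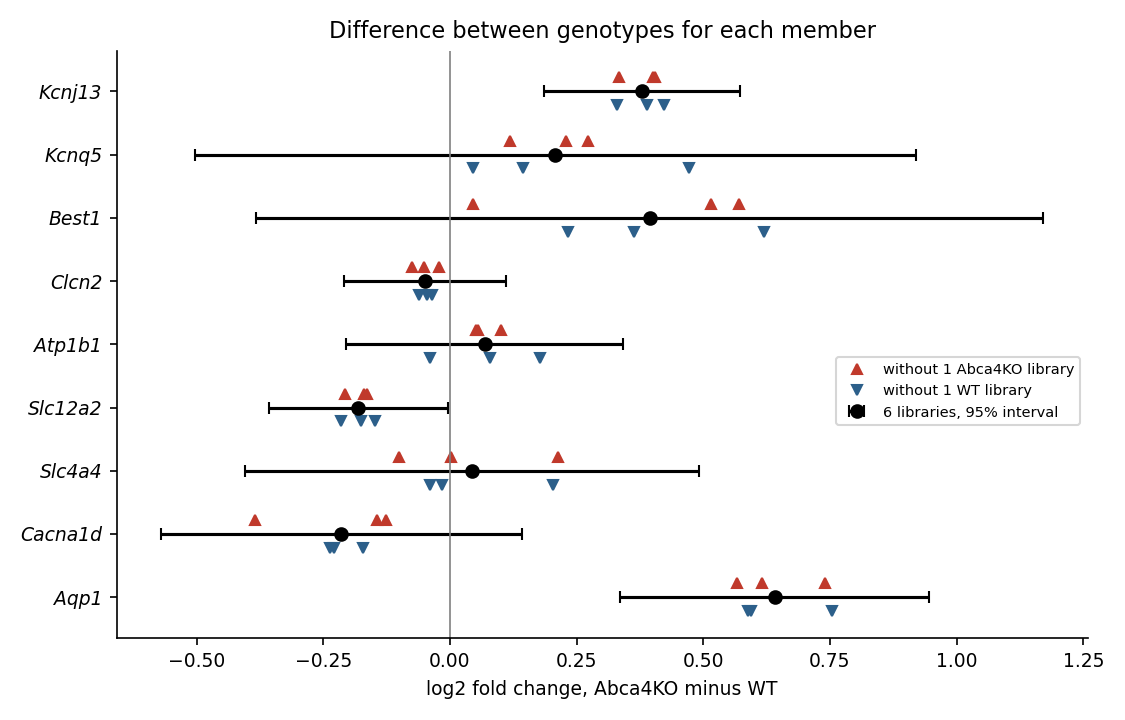
Log2 fold change (Abca4KO minus WT, horizontal axis) of each gene with all 6 libraries (black, with 95% interval) and with 1 Abca4KO (red) or 1 WT library (blue) left out. The intervals of Aqp1 and Kcnj13 start above 0 at 0.34 and 0.19, while those of Best1 and Kcnq5 are the widest.

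Aqp1 encodes a water channel that lets water pass through the RPE cell, and it is also made by many endothelia and by erythrocytes. It had 77.2, 60.5 and 72.5 CPM in Abca4KO RPE, against 41.5, 51.7 and 41.5 CPM in WT RPE. The lowest Abca4KO library, Abca4KO 2, lay above the highest WT library, WT 2. The means were 70.04 ± 8.61 CPM in Abca4KO and 44.9 ± 5.87 CPM in WT (SD, n = 3 each), a 1.56-fold difference with a 95% interval of 1.26 to 1.93. Its log2 fold change was 0.64 (SE 0.13). In edgeR the unadjusted p was 0.00147 and the adjusted p 0.453.

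The Aqp1 call depended on the test. DESeq2 gave an adjusted p of 0.00880 and limma-voom with sample weights 0.0342, with 0.326% and 0.0807% of all genes passing as higher in those tests. In edgeR without both WT 2 and Abca4KO 1 the adjusted p was 0.0472, with 0.678% of genes passing as higher. Leaving out single libraries gave log2 fold changes of 0.57 to 0.75 and adjusted p-values of 0.131 to 0.976. Aqp1 (ENSMUSG00000004655, chromosome 6, 55336432 to 55348555, plus strand, mm10) had no overlapping gene with counts and no near-identical transcript.

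Markers of other cell types varied as well. Summed endothelial markers came to 501.5, 488.5 and 770.6 CPM in Abca4KO and 376.6, 496.5 and 302.4 CPM in WT, and all 9 had positive log2 fold changes, with a median of 0.59 and 0 past the threshold. The 2 ranges overlapped through WT 2. Erythrocyte markers came to 1091, 2569 and 1306 CPM in Abca4KO and 1509, 1780 and 1118 CPM in WT, with all 5 positive and a median of 0.20. These sums overlapped, and Abca4KO 2 alone lay above every WT library, while Abca4KO 1 lay below every WT library. Fibroblast and sclera markers lay at 1644 to 2075 CPM in Abca4KO and 1330 to 1617 CPM in WT, without overlap, with all 6 positive and a median of 0.36. Mural cell markers lay at 671.9 to 768.8 CPM in Abca4KO and 500.7 to 619.6 CPM in WT, also without overlap, with 4 of 6 positive and a median of 0.05. The largest part of the mural sum was Rgs5, at 391.4, 397.2 and 432.6 CPM in Abca4KO and 286.2, 315.6 and 190.0 CPM in WT. Cspg4 went the other way, at 60.7, 54.2 and 65.0 CPM in Abca4KO and 77.3, 72.2 and 73.8 CPM in WT. Ciliary and surface epithelium markers had 1 of 5 tested genes positive and a median of -1.62, and their sum was highest in WT 2 at 449.6 CPM. Müller glia and astrocyte markers had 1 of 6 positive and a median of -0.33. No gene of these lists was at 0 in all libraries. Which of these cells made Aqp1 here, and their part in the Aqp1 difference, was not tested.

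Among the aquaporins, Aqp1 took 89.1%, 78.3% and 88.6% of the summed TPM in Abca4KO, against 80.4%, 33.6% and 70.1% in WT. The low share of WT 2 went with Aqp5, an aquaporin of cornea and glands, which had 73.9 CPM in that library and 0.105 to 3.56 CPM in the other 5. The mean share was 85.3 ± 6.10% in Abca4KO and 61.4 ± 24.6% in WT (SD, n = 3 each; 2-sided exact permutation p = 0.2), a difference of 24.0 percentage points that was 10.1 without WT 2. Aqp3, also of surface epithelia, was highest in WT 2 at 12.2 CPM. Aqp4, the aquaporin of glia, had 5.26 ± 0.949 TPM in Abca4KO and 6.71 ± 3.62 TPM in WT (SD, n = 3 each). Aqp11, an aquaporin of intracellular membranes, measured 11.6, 9.39 and 11.2 CPM in Abca4KO and 14.7, 13.6 and 14.8 CPM in WT, without overlap (log2 fold change -0.42, adjusted p = 0.665 in edgeR).

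**Figure D4:**
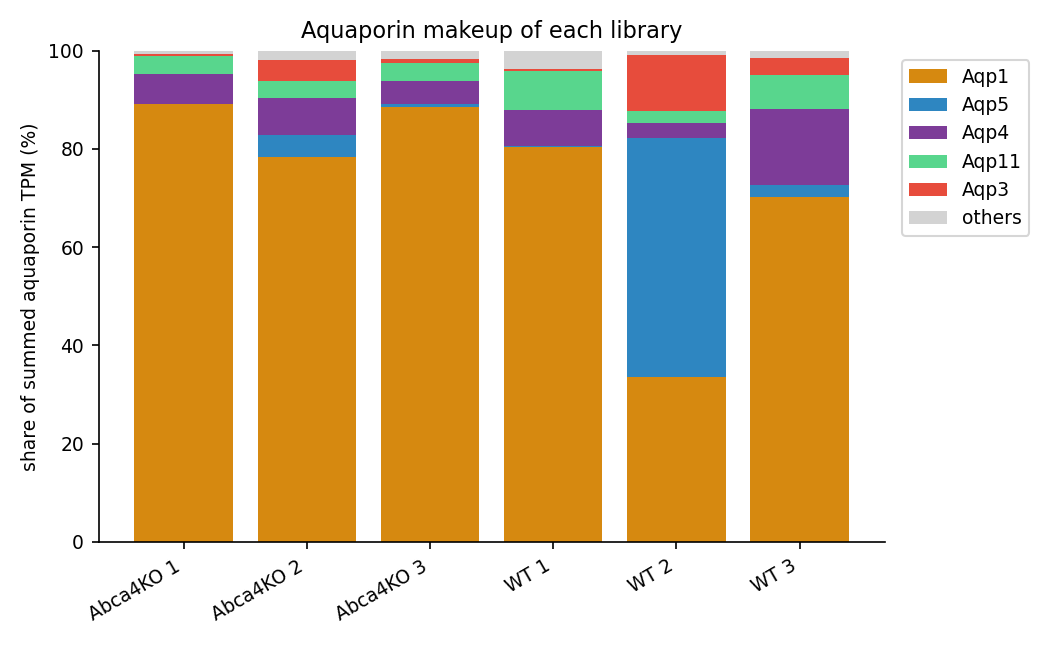
Share of each aquaporin in the summed aquaporin TPM (percent, vertical axis) in 3 Abca4KO and 3 WT libraries. Aqp1 takes 70.1% or more in every library except WT 2, where it takes 33.6% and Aqp5 is the largest part.

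The wider set of ion transport genes gives the setting of these 9. Of 204 such genes in the table, 181 were tested, and 0 passed the threshold in edgeR, while 22 (12.2%) had an unadjusted p under 0.05, beside 7.02% of all tested genes. DESeq2 called 3 of them, Aqp1 and Kcnj13 included, where 0.549% of all genes passed, and limma-voom called 1, Aqp1, where 0.179% passed. The median log2 fold change was 0.04, beside -0.01 over all tested genes, with 100 positive and 81 negative.

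Over all tested genes, 3.15% were higher and 3.87% lower at an unadjusted p under 0.05, and the class counts stand beside these shares. By class, potassium channels (45 tested) had a median of 0.14, with 5 higher and 1 lower at an unadjusted p under 0.05. Kcna4, a voltage-gated channel, measured 0.763 ± 0.147 CPM in Abca4KO and 1.99 ± 0.776 CPM in WT, and Kcnq1 measured 2.78 ± 0.586 CPM in Abca4KO and 1.55 ± 0.167 CPM in WT (SD, n = 3 each). Kcnq1 shares 2.96% of its exon bases with the antisense RNA Kcnq1ot1, and its count is uncertain to that extent. Chloride channels (31 tested) had a median of 0.02, with 1 higher and 3 lower. Best3 was among the lower ones, as was Ano5, a gene of the anoctamin family that measured 18.7 ± 1.698 CPM in Abca4KO and 26.4 ± 5.63 CPM in WT (SD, n = 3 each). Clic6 was the highest of the class, with 756.3 ± 118.1 TPM in Abca4KO and 761.9 ± 129.9 TPM in WT (SD, n = 3 each).

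Genes of the Na/K-ATPase (13 tested) had a median of 0.17, with 11 positive, beside 8293 positive and 9047 negative of all tested genes. Of the 13, 3 were higher at an unadjusted p under 0.05, beside 3.15% of all tested genes. These were Atp1b3, Fxyd2 and Fxyd1. Cation-chloride cotransporters and their kinases (13 tested) had a median of -0.11, with 10 negative and 2 lower (3.87% over all tested genes), which were Slc12a2 and Stk39. Bicarbonate, proton and carbonic anhydrase genes (30 tested) had a median of 0.04, with 3 higher (3.15% over all tested genes). They were Car3 (17.7 ± 7.05 CPM in Abca4KO and 10.02 ± 2.03 CPM in WT), Car4 (2.68 ± 0.392 CPM in Abca4KO and 1.34 ± 0.519 CPM in WT) and the anion exchanger gene Slc4a3 (46.3 ± 1.72 CPM in Abca4KO and 39.3 ± 3.75 CPM in WT; SD, n = 3 each).

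Calcium channels and pumps (43 tested) had a median of -0.0067, with 1 higher (Cacnb3) and 1 lower (Atp2b2). Atp2b2, a plasma membrane calcium pump gene, measured 190.3 ± 9.41 CPM in Abca4KO and 224.0 ± 22.5 CPM in WT, and the cation channel gene Trpm1, expressed in melanocytes, RPE and bipolar cells, 393.9 ± 42.0 CPM in Abca4KO and 277.4 ± 89.7 CPM in WT (SD, n = 3 each). WT 2 was lowest for Trpm1 at 176.9 CPM, and without WT 2 its log2 fold change of 0.51 fell to 0.27. Trpm3, which hosts the RPE miRNA gene Mir204, had 245.0 ± 45.9 TPM in Abca4KO and 293.2 ± 58.04 TPM in WT (SD, n = 3 each). These values rest on its deposited length of 8061 bases, against 24437 exon bases in GENCODE M21, so its place in the class depends on the annotation. Of 12 aquaporins 6 were tested, with a median of -0.35, 1 higher (Aqp1) and 1 lower (Aqp11). The adjusted p-values of all these genes in edgeR were 0.453 or above.

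**Figure D5:**
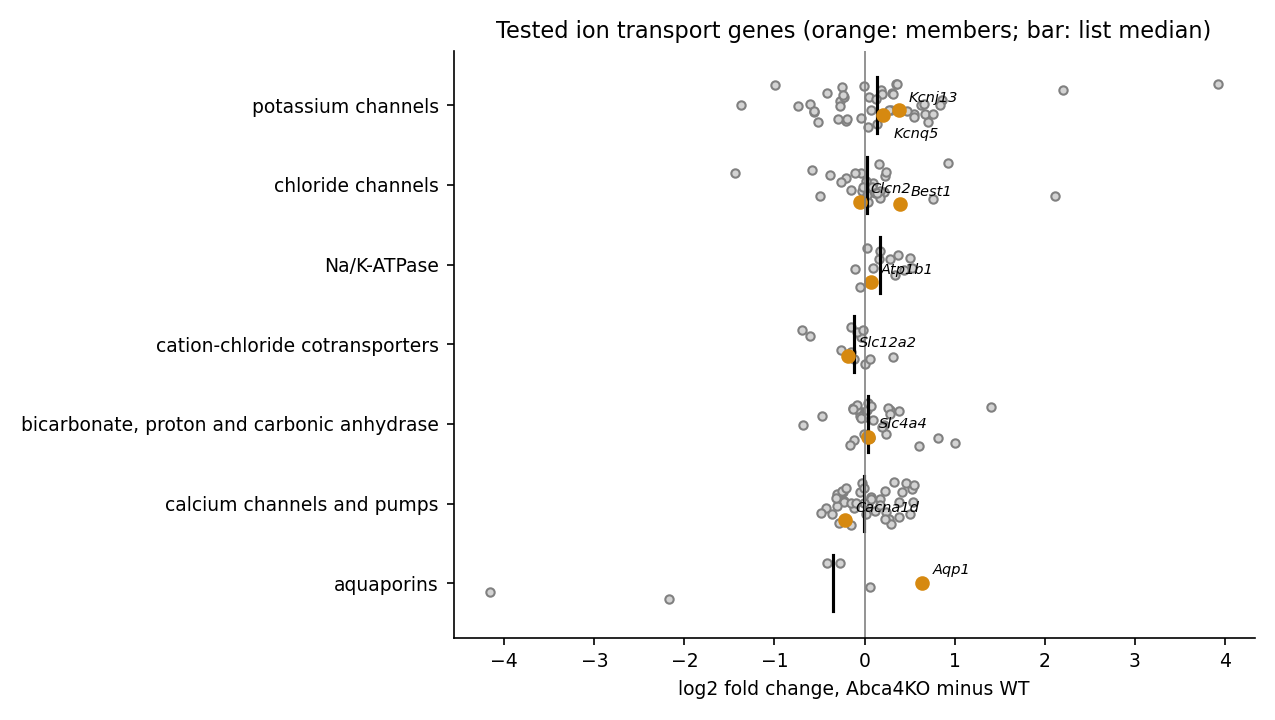
Log2 fold change (Abca4KO minus WT, horizontal axis) of the 181 tested ion transport genes by class, with the 9 described genes in orange and the median of each class as a bar. Class medians lie between -0.35 for the 6 tested aquaporins and 0.17 for the Na/K-ATPase, and the point farthest to the left is Aqp5.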

How the data were processed

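The authors deposited raw read counts per gene, not normalized, with 1 column per library and a length for each gene. STAR, HTSeq and mm10 are named in the submitters' processing notes, without versions. The annotation release and the use of strand are not given in the sources used here, so counts of overlapping genes are uncertain. Coordinates are those of the deposited table, and 98.33% of the 54409 gene IDs it shares with GENCODE M21 lie at the same position there.

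Genes were filtered with filterByExpr (minimum count 10, genotypes as groups), normalized with TMM factors and compared over all 6 libraries with the 2-sided quasi-likelihood test of edgeR 4.0.16 in R 4.3.3, with Benjamini-Hochberg adjustment over 17340 genes. The standard error is the log2 fold change over the root of the F statistic, and the 95% interval uses edgeR's degrees of freedom. TPM was computed from the deposited counts and lengths. With 17047286 to 19841307 counts per library, 3 counts equal 0.152 to 0.174 CPM, for counting error only. All library pairs differed beyond counting noise (chi-square per degree of freedom at least 12.6). Overlaps were read from GENCODE M21, and similar transcripts were searched with blastn 2.17.0 (at least 90% identity over 100 bases).

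The members and lists were chosen with earlier results of these data known. Beside the members, Abca4 and Gigyf2, the text names from each class up to 3 genes by smallest p and up to 2 by TPM, with a mean of at least 1 CPM; some of these are not reported here. Kcnj8, Kcnj10, Slc4a2, Cacna1h, Cacna1c and the marker and partner genes are not covered by it and were picked with their values known. Other settings were DESeq2 1.42.0, limma-voom 3.58.1 with sample weights, other scalings and filters, the replicate number as a block and each library left out. The fit without both WT 2 and Abca4KO 1 was added after the data were seen.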

Additional observations from a re-analysis of the deposited data

How the results depend on the processing

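In edgeR 8 genes passed with all 6 libraries, 19 with no filter on low counts, 106 in DESeq2, 31 in limma-voom, 190 without both WT 2 and Abca4KO 1, and 3 to 11 with single libraries left out (3 without Abca4KO 2 or Abca4KO 3, 4 without WT 1). Of the 9 members 0 passed in edgeR, 2 in DESeq2, 1 in limma-voom and 1 without both WT 2 and Abca4KO 1, and of the ion transport genes 0, 3, 1 and 2. The cause was not tested. Both counts stayed at 0 in the 6 fits that left out a single library and under the other scalings and filters. All members except Atp1b1 and Slc4a4 kept their direction in every setting.

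Signs turned for Slc4a4 (-0.0514 in limma-voom, -0.0714 without both libraries, -0.1004 to 0.2135 with single libraries left out), Atp1b1 (-0.0716 without both, -0.0398 to 0.1783), Gigyf2 (-0.0255 in limma-voom, -0.0866 without both, -0.0505 to 0.0706), Aqp5 (0.73, 1.30, -6.34 to 0.78) and Aqp3 (0.53, 0.82, -3.77 to 0.37). DESeq2 gave no adjusted p for Aqp5. With single libraries left out, the Kcnj13 to Gigyf2 ratio differed by 0.31 to 0.45, the Atp1b1 share by -4.47 to -1.53 and the Aqp1 share by 10.1 to 33.5 percentage points.

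With the replicate block, 9 genes and 0 members passed. Deviations of same-numbered libraries correlated at 0.17, 0.34 and -0.08 over 17340 genes. Abca4KO 2 correlated best with WT 2, whereas Abca4KO 1 and Abca4KO 3 correlated best with another number. With so few libraries per genotype, these values cannot settle whether the numbers pair the mice. Among the members, Kcnq5 and Best1 had the fewest counts, at 43 to 190 per library. For Best1 the spread between libraries exceeded the counting error.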
